A study of Mus musculus with 9 samples.

Results

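All mouse tumours that carried a floxed Yap1 allele were pooled into 1 group, called YSG here, and compared with tumours without that allele, called SG. The pool took 6 of the 9 libraries of the study, 3 labelled rescued (YSGr) and 3 labelled non-rescued (YSGnr), and SG was the other 3. SG animals were fSMO-M2;hGFAPcre and both YSG groups were fYap1;fSMO-M2;hGFAPcre, so SMO-M2, an activated form of the Hedgehog signal transducer Smoothened, and the Cre driver hGFAPcre were present in all 9 libraries. RNA came from tissue recorded as MB at postnatal day 8 or 9. Neither a definition of rescue nor the animals' sex is given in the labels, and whether 1 library equals 1 animal is also not given. P-values therefore describe how far these libraries spread, some of which may be technical. The unit is log2 CPM, where CPM scales reads to library size. A gene was tested when 3 or more of the 9 libraries exceeded 0 on this scale, as was the case for 15251 of 17482. The question was what the floxed tumours shared, rescued or not.

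YAP, the protein made from Yap1, is a transcriptional coactivator that enters the nucleus when the kinases of the Hippo pathway are quiet, and it acts there through DNA-binding partners of the TEAD family. Its paralog TAZ is made from Wwtr1. Hedgehog signalling drives division of cerebellar granule neuron progenitors, and its constant activation in that lineage gives medulloblastoma. hGFAPcre acts in neural stem and progenitor cells, so both the granule lineage and glia can carry the recombined alleles.

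Some markers of the granule lineage were present at high levels throughout, but others were not. The granule lineage factor Zic1 stood between 9.66 and 10.51 log2 CPM and the progenitor factor Barhl1 between 7.38 and 9.27 in the 9 libraries. The progenitor factor Atoh1 was 5.89 to 6.76 in SG, 3.89 and 3.34 in YSGr replicates 1 and 2, and 6.25 to 6.89 in the other floxed libraries. Lhx9, which was also placed in the granule progenitor list used here, was far below Zic1 in every library. It was 2.23 to 2.68 in SG and as low as -2.89 in YSGnr replicate 3. Several features set libraries apart before any comparison. YSGnr replicate 1 was the shallowest library, with 9.65 M (mega) back-calculated reads against 17.2 to 29.2 M in the rest, and 63.4% of its reads fell on 2 genes noticed in the data, Yam1 and Lars2, against at most 8.15% elsewhere. The median SD over genes was 0.11 log2 units in SG and 0.40 in the pool. YSGr replicates 1 and 2 stood apart from the other 4 floxed libraries in the median of 32 cell cycle genes, at -0.94 and -1.25 relative to the SG mean against -0.16 to 0.13. Of the 6 floxed libraries 4 (all YSGr and YSGnr replicate 1) had the X-inactivation RNA Xist at 9.81 to 10.81 log2 CPM, while it was at most -0.25 in the other 5 libraries of the study. In these 5, Ddx3y, a helicase gene on the Y chromosome, was between 4.97 and 5.99, and in the 4 it was at the table's minimum of -3.52. The SG libraries were thus all of 1 kind in these transcripts and the pool was a mixture. In bulk RNA, fewer cells of a type and less RNA per cell cannot be told apart.

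In the pool 318 of the 15251 genes passed an adjusted p of 0.05 (limma), which is 2.09% of the genes tested. Of these, 149 were higher in YSG (0.977%) and 169 lower (1.11%). A difference of at least 2-fold was seen for 78 of the higher and 83 of the lower genes, and of at least 4-fold for 15 and 32. All 318 had their 6 YSG libraries entirely above or entirely below the 3 SG libraries. Over all genes tested such separation was seen for 2417, or 15.8%, with 1048 higher (6.87%) and 1369 lower (8.98%). The median difference over all genes tested was -0.01 log2 units. The number of calls depended strongly on the 3 SG libraries: it fell to 21, 25 and 26 when SG replicate 1, 2 or 3 was left out. It was 135 without YSGr replicate 3, 549 without YSGnr replicate 1 and 270 without both of these, and 185 of the 318 were still called in that last case. The 2 floxed libraries that held Y-linked transcripts were YSGnr replicates 2 and 3. With these alone against SG, all 318 were called, while 7779 of the 15251 genes passed in that set of 5 libraries. No YSGr library was in that set, so it cannot bear on what rescued and non-rescued tumours shared. The direction of the 318 could not change there, because none of them overlapped.

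The genes called in the pool were compared between YSGr and YSGnr in a 3-group limma model, where the SG libraries enter the estimate of spread but not the difference. Between YSGr and YSGnr 910 of all genes tested were called (5.97%), 776 of them higher in YSGr (5.09%) and 134 lower (0.879%). That count moved widely with single libraries, to 8, 9 and 10 without SG replicate 1, 2 or 3, to 4, 1 and 6528 without YSGr replicate 1, 2 or 3, and to 4725, 1 and 2 without YSGnr replicate 1, 2 or 3. The same limit holds for each count of genes that differ between YSGr and YSGnr given here. Among the 318 genes the count was 13, or 4.09%, all higher in YSGr. Pooling treats a difference between YSGr and YSGnr as error, so genes that differ between YSGr and YSGnr were called less readily by construction. The 13 were 11 genes called higher in YSG, Fam107a, Cbln3, Gabra6, Il16, Gabrd, Lynx1, Tuba8, Cabp7, Tuba4a, Slc1a6 and Fam131a, and 2 called lower, Col4a1 and Lamc1. For the 11 the YSGr libraries were thus farther from SG, and for the 2 they were nearer to it.

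**Figure D1:**
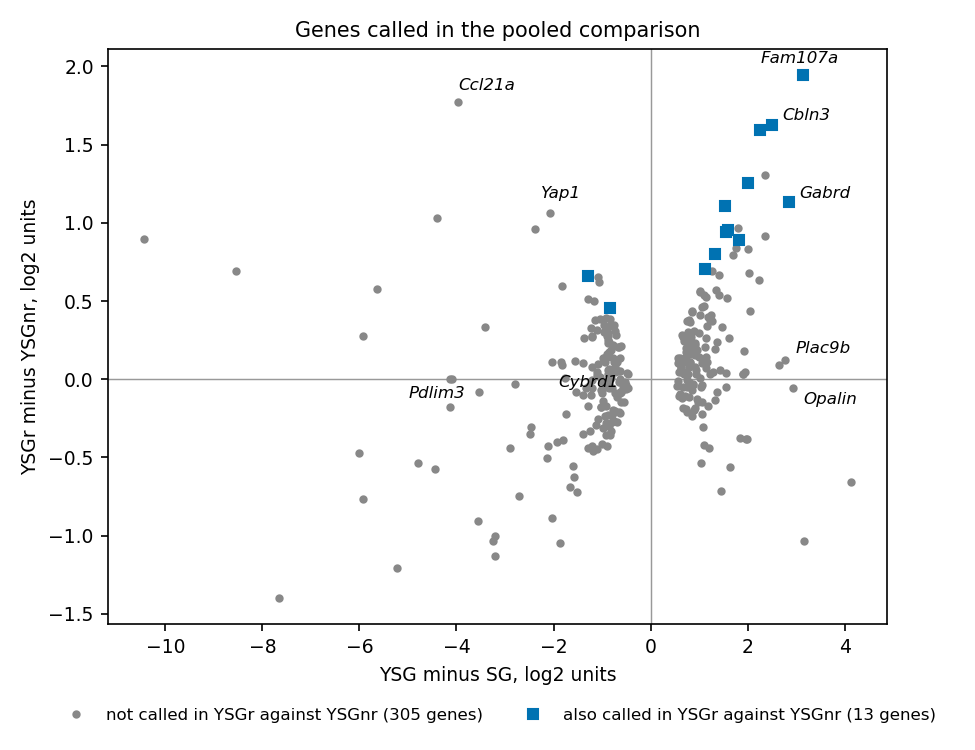
Each point is 1 of the 318 genes called in YSG against SG. The x axis gives YSG minus SG and the y axis YSGr minus YSGnr, both in log2 units, and the 13 squares mark genes also called between YSGr and YSGnr, all of which lie above 0 on the y axis.

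Yap1 (ENSMUSG00000053110.13, chromosome 9, 7931999 to 8004596, GRCm38), the targeted gene, stood at 5.04, 5.11 and 5.03 log2 CPM in SG. It was 4.44, 3.31 and 2.79 in YSGr and 2.79, 2.57 and 1.99 in YSGnr. All 6 floxed libraries were below the 3 SG libraries, and YSGr replicate 1 was the nearest to them. The pooled difference was -2.08 log2 units (SE 0.43, limma adjusted p = 0.0431), a 4.23-fold lower level. In an exact two-sided permutation test over the 84 ways to choose the groups the p was 0.0119, the smallest these group sizes allow. When each of the 9 libraries was left out in turn the difference lay between -2.37 and -1.88, with adjusted p between 0.0054 and 0.2205, and it was called in 1 of the 9 fits. A gene-level value does not separate reads over a deleted exon from reads over the rest of the gene.

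Some partners and upstream regulators of YAP fell as well. Of 25 Hippo pathway and TEAD genes tested, 4 fell, Yap1, Tead1, Wwc1 and Wwtr1, and none rose. The median difference of the list was -0.55 log2 units beside -0.01 over all genes, and 8 of the 25 were lower in all 6 floxed libraries than in any SG library, with none higher. Over all genes tested 8.98% were lower and 6.87% higher in this way, and 1.11% were called lower and 0.977% higher. These shares are the background for the list counts that follow. Tead1, a DNA-binding partner of YAP, was between 7.35 and 7.51 log2 CPM in SG. Its YSGr libraries were 6.44, 6.33 and 6.60 and its YSGnr libraries 6.58, 5.90 and 5.75, so the groups did not overlap, and it fell by 1.15 log2 units (SE 0.20, adjusted p = 0.0266). Wwtr1, which encodes the YAP paralog TAZ, was 5.66, 5.37 and 5.41 in SG, 4.995, 4.75 and 4.74 in YSGr and 4.53, 4.44 and 4.37 in YSGnr. It fell by 0.84 (SE 0.16, adjusted p = 0.0328), with the YSGnr libraries the lowest. Wwc1, a scaffold that activates the Hippo kinases, fell by 0.93 (SE 0.19, adjusted p = 0.0405), and here YSGr replicates 1 and 2 were the lowest, at 5.14 and 5.08 against at least 6.36 in SG. Wwc1 was no longer called when a trend with transcript length and GC content was removed from each library (adjusted p = 0.0649).

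The other TEAD genes were not called, with differences of -0.52 for Tead2 (adjusted p = 0.66), -0.65 for Tead3 (adjusted p = 0.17) and 0.03 for Tead4 (adjusted p = 0.99). The kinase genes Lats1, Lats2, Stk3 and Stk4 differed by -0.56, -0.42, -0.40 and -0.11 and were not called either. Sav1 and Mob1a, adaptors of these kinases, and Wwc2 and Amotl1, regulators of YAP, were lower in all 6 floxed libraries than in SG without passing the test (adjusted p between 0.064 and 0.27).

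Genes known as targets of YAP and TEAD did not move together. Of 28 tested, 1 rose, Nt5e, and 2 fell, Ajuba and Asap1, and the list's median was -0.12 log2 units. Ajuba, a LIM-domain protein that restrains the Hippo kinases, was 4.04, 4.15 and 3.94 log2 CPM in SG, 2.89, 2.50 and 3.53 in YSGr and 3.09, 3.01 and 2.67 in YSGnr. It fell by 1.10 (SE 0.22, adjusted p = 0.0385). Asap1, an Arf GTPase-activating protein, fell by 0.88 (SE 0.16, adjusted p = 0.0266), a call that was lost after removal of the length and GC trend (adjusted p = 0.115). Nt5e, the ecto-enzyme that makes adenosine, was tightly grouped at 2.41 to 2.46 in SG and at 3.06 to 3.36 in the 6 floxed libraries, a rise of 0.74 (SE 0.14, adjusted p = 0.0312). The most used readouts of YAP activity were not called and had opposite signs: the difference was -0.95 for Cyr61 (adjusted p = 0.183) and 0.68 for Ctgf (adjusted p = 0.331).

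Promoter windows of Yap1 and Wwtr1, of the Hippo list, and of Ajuba, of the target list, are shown because these genes fell and hold the core motif that TEAD factors recognise. GGAATG, or CATTCC on the other strand, was searched in the 250 bases before each RefSeq start (GRCm38.p6). It was present for 9 of the 21 Hippo list genes with a promoter in the reference table (42.9%), and for 3880 of all 27025 genes of that table (14.4%). A match is a description of the letters, not of binding. Among the other named genes, the motif was also found for Pdlim3 and Slc25a24, which fell. It was found as well for Aldoc, Cbln3, Cnp, Mag, Slc1a6, Tesc and Tmem125, which rose. The windows below run 5′ to 3′ along each gene's strand, with the motif in capitals.
Yap1, chr9:8004672-8004797, minus strand: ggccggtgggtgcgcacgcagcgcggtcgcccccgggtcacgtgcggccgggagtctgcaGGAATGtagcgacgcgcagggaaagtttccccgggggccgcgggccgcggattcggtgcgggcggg
Wwtr1, chr3:57575981-57576106, minus strand: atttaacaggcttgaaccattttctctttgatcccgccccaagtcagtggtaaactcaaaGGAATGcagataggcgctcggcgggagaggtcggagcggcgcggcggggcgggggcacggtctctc
Ajuba, chr14:54577760-54577885, minus strand: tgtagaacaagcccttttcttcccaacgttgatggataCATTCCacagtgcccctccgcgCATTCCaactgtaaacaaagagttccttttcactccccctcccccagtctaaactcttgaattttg
The motif lies 135 bases before the start of Yap1, and the pair in Ajuba lies 180 and 158 bases before its start. The single motif of Wwtr1 lies 130 or 164 bases before 1 of 2 listed starts. Promoters were found for fewer than 80% of the called genes and of the target list, so no share is given for those.

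**Figure D2:**
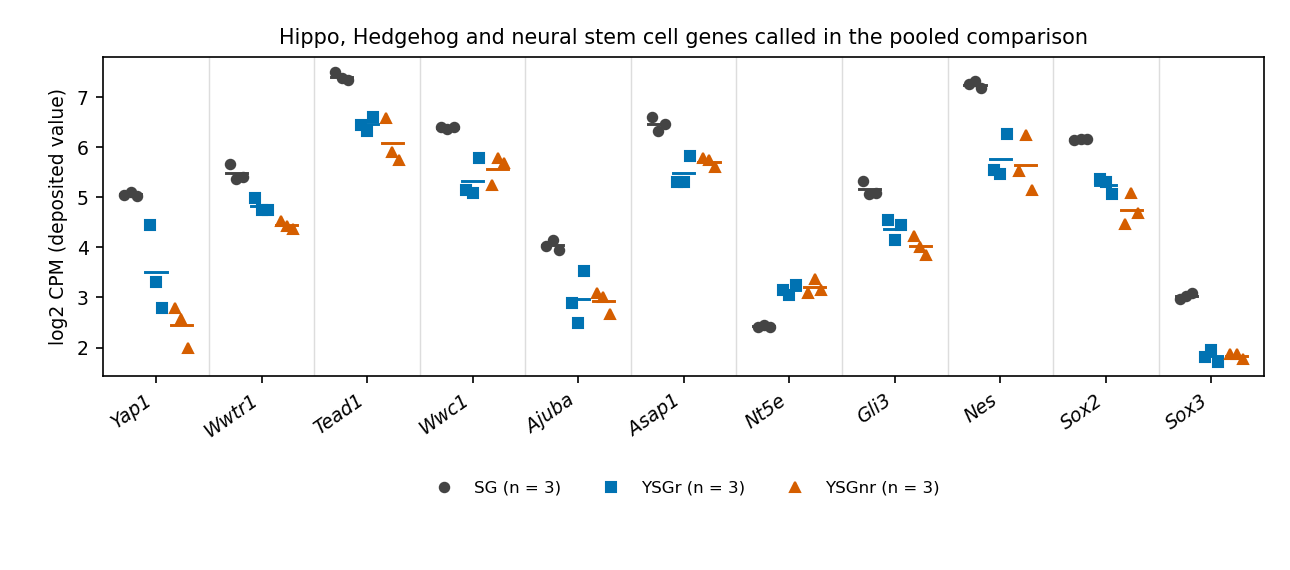
The y axis gives the deposited log2 CPM of 11 genes in each of the 9 libraries, and bars mark group means. Yap1, Wwtr1, Tead1, Wwc1, Ajuba, Asap1, Gli3, Nes, Sox2 and Sox3 lie lower in all 6 floxed libraries than in SG, and Nt5e lies higher.

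The median of the neural stem cell genes was below SG in all 6 floxed libraries, and some members fell. Of 17 tested, 3 fell, Nes, Sox2 and Sox3, none rose, and 10 were lower in every floxed library than in any SG library. The median of the list relative to the SG mean lay between -1.08 and -0.58 log2 units in the 6 floxed libraries. Sox3, an X-linked transcription factor of neural progenitors, was among the most even genes of the pool: 2.98, 3.03 and 3.09 log2 CPM in SG, 1.81, 1.96 and 1.72 in YSGr and 1.87, 1.87 and 1.76 in YSGnr. It fell by 1.20 (SE 0.15, adjusted p = 0.0073). Nes, the intermediate filament gene of neural stem cells, was between 7.17 and 7.32 in SG, between 5.47 and 6.25 in YSGr and between 5.14 and 6.24 in YSGnr, and fell by 1.55 (SE 0.25, adjusted p = 0.0205). Sox2, a factor that keeps progenitors undifferentiated, was 6.15 to 6.17 in SG and 4.46 to 5.37 in the floxed libraries, and fell by 1.16 (SE 0.20, adjusted p = 0.0249). Sox21, a related factor outside the list, fell by 1.03 (SE 0.17, adjusted p = 0.0216), with floxed libraries between 2.46 and 3.14 against at least 3.83 in SG. The glial and radial markers Vim, Slc1a3 and Tnc were not called, at -0.68, -0.26 and -0.80.

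The Notch pathway maintains neural stem cells. Its list shares genes with the neural stem cell list, among them Notch1, so the counts of these lists are not independent. Of 25 genes tested 12 were lower in all floxed libraries than in SG, none was higher, and the median was -0.60 log2 units. The test called 2 of them. Heyl, a Notch effector, was 4.10, 4.07 and 3.81 log2 CPM in SG and between 2.85 and 3.29 in the floxed libraries, and fell by 0.93 (SE 0.16, adjusted p = 0.0255). Nrarp, a feedback inhibitor induced by Notch, fell by 0.91 (SE 0.18, adjusted p = 0.0393). The receptors Notch1, Notch2 and Notch3 differed by -1.05, -0.73 and -0.95 and the ligand Jag1 by -1.41, and none of these was called (adjusted p between 0.065 and 0.26).

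Hedgehog pathway genes were lower on the median by 0.59 log2 units, but the size differed between the libraries. Of 19 tested, 1 fell, Gli3, none rose, and 6 were lower in all floxed libraries. Gli3, the transcription factor that represses Hedgehog targets in the absence of signal, was 5.32, 5.07 and 5.08 log2 CPM in SG, 4.54, 4.14 and 4.44 in YSGr and 4.23, 4.01 and 3.84 in YSGnr. It fell by 0.96 (SE 0.17, adjusted p = 0.0271). The direct targets Ptch1, Hhip and Gli1 differed by -1.35, -1.65 and -0.97 and were not called (adjusted p = 0.14, 0.15 and 0.46). The list's median relative to SG was -1.01 and -1.08 in YSGr replicates 1 and 2 and between -0.44 and -0.20 in the other 4 floxed libraries. Granule progenitor genes were not called, 0 of 19, with a median of -0.20 and 3 of 19 lower in all floxed libraries. Over all genes tested 2.09% were called and 8.98% were lower in all floxed libraries. The transcription factor genes Lhx9 and Meis2 differed most in that list, at -2.87 (adjusted p = 0.073) and -2.68 (adjusted p = 0.055). Their SG means were 2.43 and 3.60 log2 CPM, beside 9.88 for Zic1.

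Of 32 cell cycle genes 2 fell, Cenpe by 0.86 (SE 0.16, adjusted p = 0.0312) and Cenpf by 0.76 (SE 0.17, adjusted p = 0.0491), both of them genes of kinetochore proteins. The proliferation marker Mki67 differed by -0.71 (adjusted p = 0.16), and the replication factor genes Pcna and Mcm2 by -0.10 and -0.21. The list's median was -0.34, and the libraries with the lowest medians were YSGr replicates 1 and 2, as given above. Cenpe and Cenpf encode very long proteins, and neither was called after a trend with transcript length and GC content was removed from each library (adjusted p = 0.233 and 0.321).

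Genes of the basement membrane, the matrix sheet under the meninges and around vessels, fell in part. Of 16 tested 5 fell, Col4a1, Lama1, Agrn, Lamc1 and Col4a5, none rose, 8 were lower in all floxed libraries, and the median was -0.79 log2 units. Col4a1, a chain of type IV collagen, was at least 8.78 log2 CPM in the 3 SG libraries, 7.91, 7.75 and 8.12 in YSGr and 7.33, 7.26 and 7.22 in YSGnr. It fell by 1.28 (SE 0.22, adjusted p = 0.0239), and YSGr was higher than YSGnr by 0.66 (adjusted p = 0.0396). The laminin chain genes Lama1 and Lamc1 fell by 1.06 (adjusted p = 0.0435) and 0.84 (adjusted p = 0.0336), and the proteoglycan gene Agrn by 0.87 (adjusted p = 0.0297). Lamc1 also differed between YSGr and YSGnr, by 0.46 (adjusted p = 0.0489). The list's median relative to SG was between -0.61 and -0.32 in YSGr and between -1.13 and -0.89 in YSGnr. Of 17 endothelial and 17 mural and fibroblast markers none was called, with medians of -0.18 and -0.13. Like the basement membrane list, both were lower in YSGnr, where the medians against SG were -0.47 and -0.58 beside -0.02 and -0.15 in YSGr. The receptor genes Kdr and Flt1 of endothelial cells differed from SG by -1.37 and -1.38 in YSGnr and by -0.22 and -0.39 in YSGr. The summed level of the endothelial list was 8.77 to 8.91 log2 CPM in SG and 8.21 to 8.84 in the pool. Their part in the lower basement membrane genes was not tested.

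Some genes of mature granule neurons had large increases. Of 26 tested 3 rose, Gabrd, Cbln3 and Gabra6, none fell, 9 were higher in every floxed library, and the median was 0.66 log2 units. Gabrd, the delta subunit of the GABA-A receptor, was 1.86, 1.73 and 1.60 log2 CPM in SG, 5.24, 5.37 and 4.85 in YSGr and 4.30, 3.42 and 4.33 in YSGnr. It was 7.24-fold higher in the pool (log2 difference 2.86, SE 0.38, adjusted p = 0.00995). Cbln3, a secreted synaptic organiser made by granule neurons, was 3.10 to 3.20 in SG, 6.33 to 6.68 in YSGr and 4.49 to 5.13 in YSGnr, and was 5.69-fold higher (adjusted p = 0.0315). Gabra6, the granule cell subunit of the GABA-A receptor, was 4.81-fold higher (log2 difference 2.27, SE 0.49, adjusted p = 0.0480). For all of these the 6 floxed libraries were above SG and the YSGr libraries were the highest. YSGr exceeded YSGnr by 1.13 for Gabrd, 1.63 for Cbln3 and 1.59 for Gabra6 (adjusted p = 0.0423, 0.0158 and 0.0267). The vesicular glutamate transporter gene Slc17a7 and the NMDA receptor subunit gene Grin2c were also separated from SG, by 2.19 and 1.56, but missed the threshold (adjusted p = 0.054 and 0.051). Neurod1 and Tubb3, which mark earlier granule neurons, differed by 0.57 and 0.35 and were not called.

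The median of the granule neuron list relative to SG was 1.39, 1.22 and 0.60 in YSGr replicates 1, 2 and 3 and between 0.08 and 0.30 in YSGnr, with the rescued libraries the highest. Of 15 Purkinje cell markers 2 rose. Ppp1r17, a phosphatase inhibitor of Purkinje cells, was 1.36, 2.07 and 1.88 log2 CPM in SG and 4.17, 4.73, 4.87, 4.25, 3.64 and 3.14 across the floxed libraries. It was 5.14-fold higher (log2 difference 2.36, SE 0.37, adjusted p = 0.0187). Slc1a6, the glutamate transporter of Purkinje cells, rose by 1.32 (SE 0.25, adjusted p = 0.0311), and YSGr was higher than YSGnr by 0.80 (adjusted p = 0.0267). Slc1a6 was no longer called after removal of the length and GC trend (adjusted p = 0.0573). Pcp2, Pvalb and Pcp4 were also higher in all 6 floxed libraries, by 0.89, 0.91 and 0.91, without passing the test. The median of the whole Purkinje list was 1.01 in YSGr against SG and -0.23 in YSGnr against SG. Of 25 synapse genes none was called in the pool and 15 differed between YSGr and YSGnr, and of 12 interneuron genes none was called and 7 differed. The pooled medians of these 2 lists were 0.25 and 0.06. Such differences were not particular to them. Between YSGr and YSGnr 11 of the 26 granule neuron, 10 of the 15 Purkinje cell and 7 of the 16 basement membrane genes also differed. The share over all genes tested was 5.97%.

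**Figure D3:**
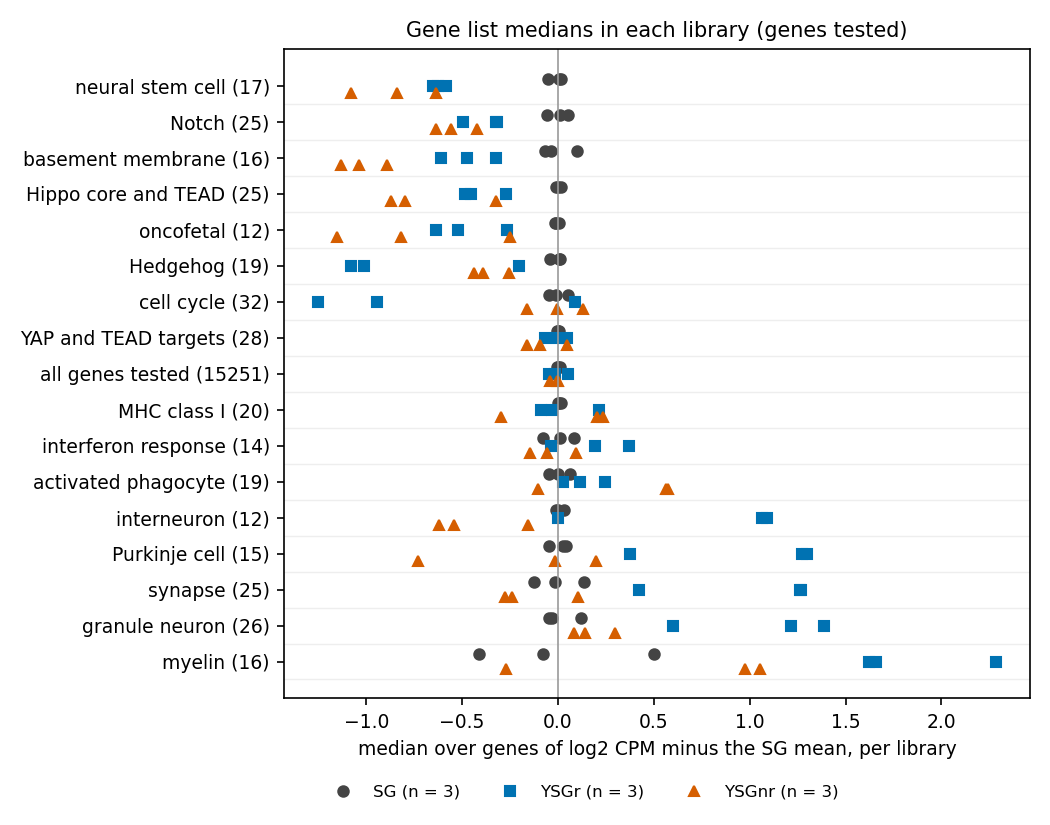
Each point is the median, over the tested genes of a list, of the log2 CPM in 1 library minus the SG mean, with the number of genes in brackets. The neural stem cell, Notch, basement membrane and Hippo medians of all 6 floxed libraries lie below those of the 3 SG libraries, while the cell cycle, synapse, Purkinje cell and interneuron medians split the pool.

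Some myelin genes rose, with wide variation between libraries. Of 16 tested 3 rose, Opalin, Mag and Cnp, none fell, and the median was 1.24 log2 units. Mag, an adhesion molecule of the myelin sheath, was 4.90, 4.55 and 5.60 log2 CPM in SG, 6.89, 7.51 and 7.22 in YSGr and 6.79, 6.61 and 5.69 in YSGnr, and rose by 1.77 (SE 0.37, adjusted p = 0.0431), a call that was lost after removal of the length and GC trend (adjusted p = 0.0638). Cnp, an enzyme of oligodendrocytes, was 7.16, 6.92 and 7.42 in SG and 7.97 to 8.76 in the pool, and rose by 1.14 (SE 0.20, adjusted p = 0.0271). Opalin, a membrane protein of mature oligodendrocytes, was low in SG at -2.81, -2.10 and -1.22 and was between -0.04 and 1.86 in the floxed libraries (log2 difference 2.94, SE 0.49, adjusted p = 0.0216). The other 13 myelin genes overlapped with SG in at least 1 library, among them Mbp at 1.32 (adjusted p = 0.17). The list's median relative to the SG mean ranged from -0.41 to 0.50 within SG itself and was -0.27 in YSGnr replicate 3. None of 11 oligodendrocyte progenitor genes was called, with a median of -0.24.

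Of 17 astrocyte and Bergmann glia genes 1 rose, Aldoc, a glycolytic enzyme of astrocytes, by 0.99 (SE 0.20, adjusted p = 0.0370). Its level was 6.84 to 6.96 log2 CPM in SG and 7.45 to 8.33 in the pool. Gfap differed by 1.11 with overlap and was not called (adjusted p = 0.245), and the list's median was -0.05. Of 6 ependymal and cilia genes 1 fell, Rfx2, a regulator of ciliary genes, by 0.85 (SE 0.17, adjusted p = 0.0385). None of 12 choroid plexus genes was called, and the median of that list relative to SG ran from -2.61 to 2.16 over the floxed libraries.

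Other large decreases fell outside these lists. Pdlim3, an actinin-binding protein of muscle and a gene with high expression in Hedgehog tumours, was 8.40, 8.24 and 8.12 log2 CPM in SG, 4.17, 4.11 and 5.78 in YSGr and 4.56, 5.40 and 4.35 in YSGnr. It was 11.5-fold lower (log2 difference -3.53, SE 0.36, adjusted p = 0.00231). Myh3, the embryonic myosin heavy chain, was 3.09, 3.16 and 2.79 in SG and between -0.73 and 1.27 in the pool, and fell by 2.71 (SE 0.42, adjusted p = 0.0187). Myog, a master regulator of muscle differentiation, fell by 3.56 (SE 0.69, adjusted p = 0.0339). Its SG libraries were 1.33, 2.17 and 0.89, and YSGr replicates 1 and 2 were at the table's minimum. Both genes were low, so these log2 values depend on the reads the authors added before taking logs.

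Ccl21a, a chemokine that draws T cells and dendritic cells, fell by 3.97 log2 units (SE 0.64, adjusted p = 0.0207). It was 2.13, 2.73 and 2.11 log2 CPM in SG, -0.41, -1.27 and -0.61 in YSGr and -3.52, -1.85 and -2.23 in YSGnr. Ccl21a has near-identical copies in the mouse genome, so how its reads were divided is uncertain. Slc14a2, a urea transporter, was 2.40, 2.15 and 2.21 in SG and between -1.96 and -0.23 in the pool, 9.28-fold lower (adjusted p = 0.00625). Crym, a thyroid hormone binding protein, fell by 2.39 (SE 0.44, adjusted p = 0.0290), and Egfl6, a secreted matrix protein encoded on the X chromosome, by 2.04 (SE 0.39, adjusted p = 0.0328). Sdpr, a component of caveolae, was 5.85 to 5.98 in SG and 2.53 to 4.48 in the pool, and fell by 2.49 (SE 0.38, adjusted p = 0.0170). Zfhx3, a transcription factor of differentiating neurons, fell by 2.14 (SE 0.37, adjusted p = 0.0249), most of all in YSGr replicate 1 at 2.74 against 5.79 to 6.16 in SG.

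Cybrd1, a ferric reductase of iron uptake, was one of the most even differences. Its levels were 4.91, 4.77 and 5.04 log2 CPM in SG, 3.21, 2.86 and 2.71 in YSGr and 2.56, 3.14 and 2.74 in YSGnr, and it fell by 2.04 (SE 0.18, adjusted p = 0.00143). Egr1, an immediate early transcription factor, fell by 1.93 (SE 0.32, adjusted p = 0.0209). Its SG libraries spread widely, at 5.72, 4.12 and 5.05, and the floxed libraries lay between 2.63 and 3.26. The other 14 immediate early genes were not called, with Fos at -0.36 and Jun at -0.20. Ston2, an endocytic adaptor of synaptic vesicles, was 3.95 to 4.01 in SG and 1.90 to 2.64 in the pool, and fell by 1.76 (SE 0.21, adjusted p = 0.00442). Slc25a24, a mitochondrial carrier, fell by 1.10 (SE 0.23, adjusted p = 0.0413).

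Among the largest increases, Fam107a, a stress-responsive actin regulator, was 0.50, 0.36 and 0.79 log2 CPM in SG, 4.66, 4.98 and 4.32 in YSGr and 2.95, 1.73 and 3.45 in YSGnr. It was 8.77-fold higher (log2 difference 3.13, SE 0.63, adjusted p = 0.0392), and YSGr exceeded YSGnr by 1.94 (adjusted p = 0.0363). Hsd11b1, which regenerates active glucocorticoid, was 2.17, 2.17 and 1.99 in SG and 3.47 to 4.75 in the pool, and rose by 1.98 (SE 0.29, adjusted p = 0.0135). These 2 were the called members of 14 glucocorticoid and stress genes, whose median was 0.35. Fkbp5 and Per1, common readouts of the glucocorticoid receptor, were not called, at -0.34 and 0.46 (adjusted p = 0.23 and 0.29).

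Plac9b, a small secreted protein, stayed called whichever library was left out. It was 0.35, 0.66 and 0.72 log2 CPM in SG and 3.19, 3.77, 3.27, 2.85, 3.09 and 3.91 in the floxed libraries (log2 difference 2.77, SE 0.26, adjusted p = 0.00143). Its neighbour and near-identical copy Plac9a rose by 2.65 (SE 0.35, adjusted p = 0.00874), and reads of these copies may have been divided between them. Kcng4, a modulatory potassium channel subunit, was 1.02 to 1.31 in SG and 2.51 to 4.12 in the pool, 4.71-fold higher (adjusted p = 0.0125). Pkp3, a desmosomal plakophilin, rose by 2.05 (SE 0.37, adjusted p = 0.0268), Tmem125 by 2.03 (adjusted p = 0.0432) and the calcineurin-like protein gene Tesc by 2.01 (adjusted p = 0.0345). Il16, a cytokine precursor that is also expressed by cerebellar granule neurons, rose by 2.00 (SE 0.41, adjusted p = 0.0410), with SG at 3.86 to 4.36, YSGr at 6.35 to 6.92 and YSGnr at 5.07 to 5.998. Lynx1, a modulator of nicotinic receptors in neurons, rose by 1.52 (SE 0.33, adjusted p = 0.0482), and YSGr was higher than YSGnr by 1.11 (adjusted p = 0.0222). Tpi1, a glycolytic enzyme, was between 6.78 and 6.93 in SG and between 7.64 and 8.48 in the pool (log2 difference 1.22, SE 0.17, adjusted p = 0.0131).

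**Figure D4:**
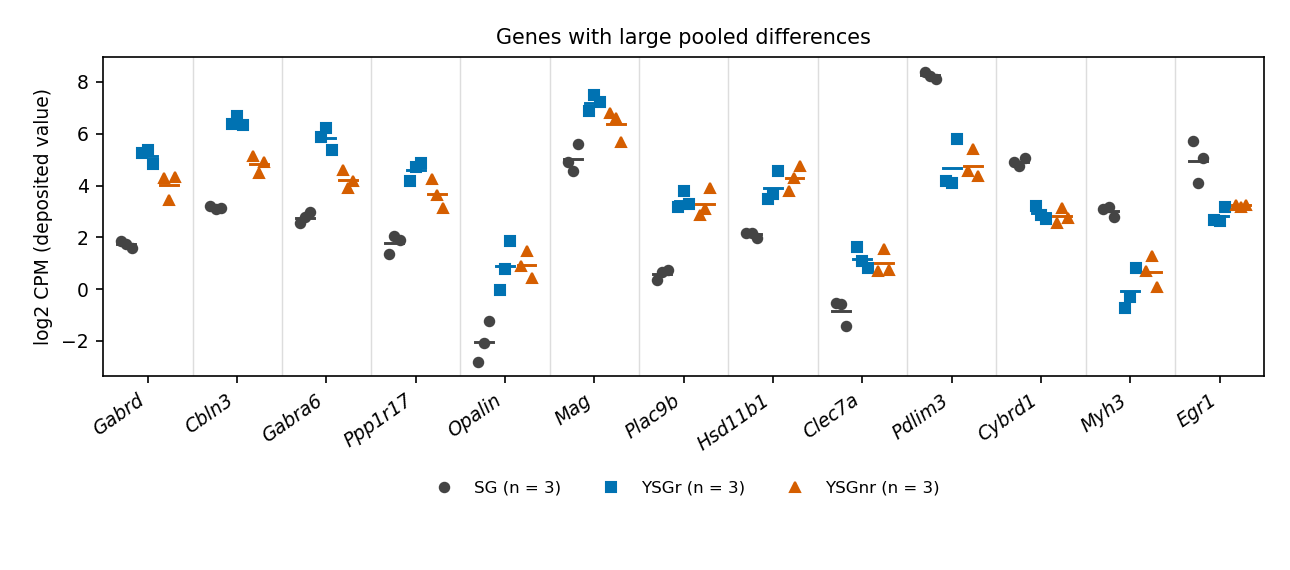
The y axis gives the deposited log2 CPM of 13 genes in each of the 9 libraries, and bars mark group means. Gabrd, Cbln3 and Gabra6 are highest in YSGr, while Plac9b, Hsd11b1, Clec7a, Pdlim3, Cybrd1 and Egr1 take similar levels in YSGr and YSGnr.

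Immune genes were mostly not called in the pool. None of 20 MHC class I, 5 MHC class II, 14 interferon response, 9 chemokine and 9 checkpoint genes passed, and the medians of these lists were 0.13, 0.57, 0.07, 0.06 and 0.05 log2 units. Of 19 genes of activated phagocytes 1 rose, Clec7a, a receptor of activated microglia that recognises fungal glucans. It was -0.52, -0.58 and -1.45 log2 CPM in SG, 1.63, 1.07 and 0.81 in YSGr and 0.70, 1.54 and 0.74 in YSGnr, and rose by 1.93 (SE 0.34, adjusted p = 0.0251). Other genes of that state, Spp1, Apoe and Cd68, differed by 0.23, 0.10 and 0.40 and were not called. Of 17 homeostatic microglia genes 1 fell, Tgfbr1, a receptor for TGF-beta found in many cell types, by 0.90 (SE 0.16, adjusted p = 0.0266). Serping1, the inhibitor of the first complement component, rose by 1.01 (SE 0.18, adjusted p = 0.0249) and was the 1 called gene of 14 complement genes. Its level was 3.53 to 3.67 log2 CPM in SG and 4.30 to 4.95 in the pool. The summed level of the activated phagocyte list was 11.03 to 11.09 log2 CPM in SG and 10.92 to 11.88 in the pool, with YSGnr replicates 2 and 3 the highest.

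Of 20 genes of cholesterol synthesis 1 rose, Mvd, a decarboxylase of the mevalonate pathway, by 0.93 (SE 0.14, adjusted p = 0.0149). It was between 4.95 and 5.02 log2 CPM in SG and between 5.67 and 6.22 in the pool. In this list 7 genes were higher in all floxed libraries and 1 lower, with a median of 0.29. Among 12 oncofetal genes none was called, with 3 lower in all floxed libraries and a median of -0.49. The 13 mitochondrially encoded transcripts were not called, with a median of 0.29.

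Transcripts without an established name made up many of the most extreme values. Of the 318 called genes 39 had symbols of predicted genes, clones, pseudogenes or antisense transcripts, or a symbol overwritten by a number, which is 12.3% beside 12.6% of all genes tested. They were, however, 20 of the 32 called genes that were at least 4-fold lower. Such symbols were also common among all tested genes that differed at least 4-fold in either direction, called or not, at 82 of 152. Gm26825, chosen after its values were seen, was 8.62, 8.69 and 8.67 log2 CPM in SG and between -3.52 and 0.34 in the pool. Gm6166, chosen in the same way, was 5.28, 5.43 and 5.43 in SG and between -3.52 and -2.40 in the pool. In both, the 6 floxed libraries lay far below SG. For Gm26825, 3 of them were at the table's minimum. On the X chromosome 10 of 516 genes were called (1.94%), all of them lower in the pool, and on the Y chromosome none of 6. Over all genes tested 2.09% were called, and 1.11% were called lower.

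Of 58 named genes called in the pool, Cybrd1, Pdlim3 and Plac9b stayed called whichever of the 9 libraries was left out, while 4 or 5 of the 58 were called when any 1 SG library was left out. Transcript length differed between the called sets: the median was 2412 bases for genes that rose, 4965 for genes that fell and 3364 for all tested. Lower levels of long transcripts relative to SG were seen in YSGr replicate 3 and YSGnr replicates 2 and 3, where the rank correlation across genes of the difference with length was -0.41, -0.52 and -0.50, against 0.15 and 0.13 in YSGr replicates 1 and 2, -0.07 in YSGnr replicate 1 and -0.11 to 0.17 in SG. When a trend with length and GC content was removed from each library, 205 of 306 calls with a known length remained, and Tmem125, Tesc, Zfhx3, Serping1, Wwc1, Asap1, Slc1a6, Cenpe, Cenpf, Mag and Tgfbr1 were no longer called.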

How the data were processed

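Bulk RNA was measured in 9 libraries (SG, YSGr and YSGnr, 3 each). Per the labels' protocols, total RNA was extracted and sequenced by a service provider, and the submitters' processing notes name Trimmomatic, RSEM, Bowtie2, Picard, edgeR and mm10, without versions. The authors deposited 1 table of log2 CPM for 17482 genes. All libraries reach the same lowest value, -3.52, from which a mean of 2.00 added reads per library was inferred, more in deeper libraries and fewer in shallower ones. Differences of low genes are therefore understated. Back-calculated low values were whole within 0.02 reads in 64.0% to 71.9% of cases, so no count test was used. Effective library sizes were 18.1 to 32.3 M reads in 8 libraries and 3.91 M in YSGnr replicate 1, where low genes are least precise. No pair of replicates was alike enough to be merged (median chi-square per gene at least 1.34, against 0.455 by sampling).

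YSG was tested against SG with limma 3.58.1 (R 4.3.3) on the deposited log2 CPM, in a 2-group model with a mean-variance trend, two-sided, with Benjamini-Hochberg adjustment over 15251 genes and a threshold of 0.05. YSGr and YSGnr were compared in a 3-group model. Groups that do not overlap have all 6 YSG values on 1 side of all 3 SG values. The members, the gene lists and the rule for named genes were chosen with earlier results of these data known. The rule named Yap1, sex-linked checks, the 12 largest called differences in each direction with a mean of at least 1 log2 CPM in the higher group, the 6 widest gaps in each direction, the 6 called genes of at least 2-fold that were nearest between YSGr and YSGnr, the 6 that differed most between them, and up to 4 called genes per list or 2 uncalled ones, leaving out predicted-gene symbols. GENCODE M21 (GRCm38, the assembly of mm10) gave coordinates, transcript lengths and GC for the 95.6% of symbols that matched 1 gene. On simulated data with 200 changed genes the test recovered 42% of changes of 1 log2 unit and 77% of changes of 2, with 8 false calls. These rates belong to the simulation only. The measured libraries had a median SD of 0.11 log2 units in SG and 0.40 in the pool, and whether the rates hold for them was not tested. Alternatives were other filters, scales, scalings and models, the replicate number as a block, libraries left out, libraries with Y-linked transcripts, and a length and GC trend removed.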

Additional observations from a re-analysis of the deposited data

Results flagged for a closer look

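The values below stood apart inside the pool. Among 97 genes and list medians examined over the 6 floxed libraries, 3 had 1 library far from the rest, where chance alone gives about 1 in 20. Plac9a was highest in YSGr replicate 3, at 2.11 log2 CPM. Tmem125 was lowest in YSGnr replicate 3, at 0.56 log2 CPM, where the other 5 floxed libraries were at 1.68 or more. The median of the oligodendrocyte progenitor genes relative to SG was lowest in YSGnr replicate 3, at -0.26 log2 units.

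In 9 of the named genes called in the pool, YSGr and YSGnr differed by a test of that difference (limma, 3-group model). YSGr was higher than YSGnr by 1.94 log2 units for Fam107a, 1.63 for Cbln3, 1.59 for Gabra6, 1.25 for Il16, 1.13 for Gabrd, 1.11 for Lynx1 and 0.80 for Slc1a6, with adjusted p between 0.0158 and 0.0423. The same held for Col4a1, by 0.66, and Lamc1, by 0.46 (adjusted p = 0.0396 and 0.0489), which were lower than SG in all 6 floxed libraries.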

How the results depend on the processing

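The count of genes called in YSG against SG was 318 (149 higher, 169 lower). It was 1093 (571 and 522) in the 3-group model, 5142 (2528 and 2614) with array weights and 48 (21 and 27) with the replicate number as a block. With the Y-linked libraries alone, where no YSGr library was left, it was 7779 (3948 and 3831), and 10501 genes did not overlap. Leaving out 1 library gave 21 to 549 calls, 7 to 256 higher and 14 to 293 lower. The 46.9% of calls that were higher became 33.3%, 28% and 30.8% without SG replicate 1, 2 or 3. All 318 genes kept their direction in these settings, which was fixed in advance because their YSG and SG libraries did not overlap. Of the 318 genes, 20 stayed called whichever library was left out. The causes were not tested. Yap1 fell by 2.08 with the block (adjusted p = 0.0898), by 1.98 without YSGr replicate 3 and YSGnr replicate 1 (adjusted p = 0.110) and changed by -2.37 to -1.88 with 1 library left out. The count for YSGr against YSGnr, 910, was 316 with median scaling, 568 without a trend, 9967 with array weights, 9867 without YSGr replicate 3 and YSGnr replicate 1, 1714 with the length and GC trend removed, and 1 to 6528 with 1 library left out. The sign turned for uncalled genes: with the Y-linked libraries alone for Tbr1 (-0.00589), Ttr (1.87), Tmem72 (1.00), Cd163 (-0.12), Cxcr4 (0.0016) and Tsix (-0.00499), and with quantile normalization for mt-Cytb (-0.040) and mt-Co1 (-0.18). Deviations of same-numbered libraries of different groups had r from -0.226 to 0.236 over 9 pairs, 4 above 0.1. Of the 9 libraries 5 correlated best with their own number. With 3 libraries per group these values can neither show nor exclude a pairing by number. Depth limits low genes in YSGnr replicate 1.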

Other observations

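The families below were chosen after their values were seen, and some of their called genes were already counted above. Of all genes tested 2.09% were called, and 8.98% lay lower and 6.87% higher without overlap. Of 16 subunit genes of the V-ATPase, the proton pump that acidifies lysosomes and synaptic vesicles, 4 were called, all higher: Atp6v0c by 1.37 log2 units, Atp6v1e1 by 0.68, Atp6v0e2 by 0.61 and Atp6v0b by 0.59. In that family 7 genes were higher in all 6 floxed libraries than in SG, none was lower, and the median was 0.37. Atp6v0c was 6.58 to 6.68 log2 CPM in SG and 7.59 to 8.49 in the pool. Of 16 Sox genes 3 were called, all lower, and 7 were lower in all floxed libraries, with a median of -0.57. The 3 were Sox2, Sox3 and Sox21, already given above. Of 4 Pou3f genes 2 were called, both lower: Pou3f4 by 1.87 and Pou3f2 by 1.20, while Pou3f3 differed by -0.18. Of 39 collagen genes 4 fell, among them Col4a1 and Col4a5, already counted in the basement membrane list. Of 5 alpha tubulin genes 2 rose, Tuba4a by 1.82 and Tuba8 by 1.59, both named above. Median transcript length was 2818 bases for the V-ATPase and 1982 for the alpha tubulin genes. It was 3746 for Sox, 4718 for Pou3f and 5658 for collagen genes, and 3364 over all genes tested. The part of transcript length in these family differences was not tested.

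Several other genes chosen after their values were seen stayed called whichever of the 9 libraries was left out. Ctsf, a lysosomal cysteine protease, was 4.33 to 4.46 log2 CPM in SG and 5.54 to 6.07 in the pool, and rose by 1.36 (SE 0.14, limma adjusted p = 0.0023). Stard10, a lipid transfer protein, rose by 1.55 and the tetraspanin gene Tspan4 by 1.48. Palld, an actin-bundling scaffold, was 4.73 to 4.78 in SG and 3.17 to 3.57 in the pool, and fell by 1.38. Ralgps2, an exchange factor for Ral GTPases, was 7.60 to 7.66 in SG and 6.14 to 6.62 in the pool, and fell by 1.30. Tmem254a and Tmem254b had identical deposited values, 1.90 higher in the pool, so they count as 1 measurement.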
